A study of Mus musculus with 12 samples.

Results

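Control cells of the mouse mammary carcinoma line 4T1 were compared between 2 culture formats, a collagen I gel (3D) and cell-culture plastic (2D). The comparison used 4 of the 12 libraries of the study, chosen by their labels: both control libraries from gels and both control libraries from plastic. Per the labels, the control cells were pools of clones nucleofected with control sgRNA, so they carry no targeted edit of Etv4, and all 12 libraries came from 4T1 cells grown in DMEM/F12 with 10% serum. The other 8 libraries came from 2 clones nucleofected with Cas9 and sgRNA against Etv4, each a single clone, with 2 libraries in each format, and they serve here only as a comparison. Cells for gels were suspended at 100000 per ml in collagen I of 1.2 mg/ml in some gels and 2.4 mg/ml in others, and the labels do not say which library had which. Droplets of 80 ul set for 30 minutes at 37 °C in low-attachment wells. Gels were then digested with collagenase I at 300 U/ml for 10 minutes, pipetted, incubated for another 5 minutes, washed and frozen as a pellet, while cells on plastic were taken directly for RNA. The gels were also counted in a separate table. Culture format, digestion and count table therefore change together, and their parts in any difference cannot be told apart. Nothing in the labels says that the 2 libraries of a group came from separate cultures, so the p-values measure the spread between these libraries, which may be technical.

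Collagen I is the main fibrillar protein of connective tissue, and cells bind it through integrins and discoidin domain receptors. Carcinoma cells in a soft gel meet the matrix on all sides, whereas on stiff plastic they spread flat and pull on focal adhesions, a state known to drive the YAP and TEAD transcription factors. Immediate early genes, such as the FOS and EGR families, are transcribed within minutes of growth factor signals, stress or handling, without new protein synthesis.

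Each value is a raw number of reads assigned to a gene symbol. The 2D control libraries held 13877312 and 14383470 counts and the 3D control libraries 27104578 and 28266688. Genes with at least 1 count numbered 13699 and 13819 on plastic and 17595 and 17498 in collagen, and 13699, 13797, 16637 and 16463 would be expected if each library were drawn down to the smallest total. Gm26917, a predicted noncoding gene, took 2.03% and 1.95% of the counts on plastic and 11.5% and 13.2% in collagen. Genes of the mitochondrial genome took 0.437% and 0.457% on plastic and 1.74% and 1.45% in collagen, and ribosomal protein genes 7.39% and 7.10% against 3.18% and 3.21%. Of 1496 sensory receptor genes, which are silent in most tissues, 9 and 12 had a count on plastic and 67 and 71 in collagen. These numbers were not drawn down to the smallest total. The same genes took 0.00085% and 0.000695% of the counts on plastic and 0.00127% and 0.00119% in collagen. The part of these library measures in the gene results below was not tested. Bulk counts cannot tell fewer cells of a kind from less RNA in each cell.

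The difference between formats varied with how a gene lies to genes on the opposite strand, which was described and not tested. Of 37 tested genes with at least 90% of their exon length under exons of the opposite strand and under 50% under a gene on their own strand, 33 were lower and 2 higher in collagen, with a median log2 difference of -6.16, and 25 of them had 0 counts in both 3D libraries against 2 with 0 counts in both 2D libraries. Pdcd2, which lies under Tbp on the opposite strand at chr17:15519208-15527301 (mm10), had 618 and 626 counts on plastic and 0 and 0 in collagen, at least 788-fold lower against a floor of 3 counts over both gel libraries. Of 619 tested genes with at least 50% of their exon length inside introns of a gene on the opposite strand, 403 were higher and 116 lower, with a median of 2.38, and 231 had 0 counts in both 2D libraries against 0 in both 3D libraries. Nnat, which lies in an intron of Blcap at chr2:157560078-157562522, had 0 and 0 counts on plastic and 435 and 370 in collagen. A gene at 0 counts in one format is tested only because of libraries where it has counts. The size of its fitted log2 difference is not measured. No bound was set for such genes in these classes, so the medians of -6.16 and 2.38 show direction better than size. The 7233 tested genes with no other gene over any exon were higher in 39.9% and lower in 36.9% of cases, with a median of 0.05. The libraries were made with a stranded kit per the labels, the strand setting used to count each table is not given in the sources used here, and its part in these differences was not tested. Counts of genes that rose or fell in the main fit and in each list, other than cell type markers, are therefore also given for a subset. It holds genes with under 5% of their exon length covered by any other gene, called genes without overlap. List medians are over all tested members unless stated.

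**Figure D1:**
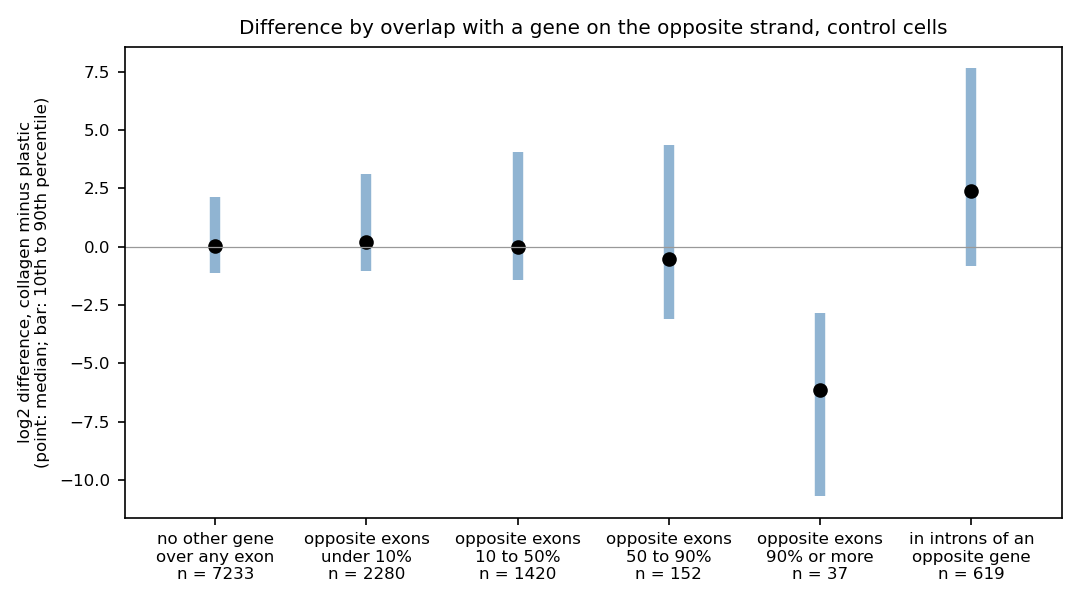
Median log2 difference, collagen minus plastic, in control cells for classes of tested genes by their overlap with a gene on the opposite strand. Points are medians and bars run from the 10th to the 90th percentile of genes. The class with 90% or more of its exon length under opposite exons has a median of -6.16 and the class inside opposite introns one of 2.38, while genes with no other gene over any exon sit at 0.05. Fitted values of genes with 0 counts in a format are included and were not set to a bound.

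In edgeR's quasi-likelihood test over all 12 libraries, with Benjamini-Hochberg adjustment over 13763 tested genes, 5735 genes rose in collagen (41.7% of those tested) and 4893 fell (35.6%) at an adjusted p of at most 0.05. At least a 2-fold change on top of that held for 3405 genes that rose (24.7%) and 1808 that fell (13.1%). The filter for low genes keeps a gene that passes in 1 group of libraries alone. When at least 1 CPM was required in every control library, 1822 of 10621 tested genes rose and 1299 fell by at least 2-fold. Among the 8619 genes without overlap, 3542 rose (41.1%) and 3138 fell (36.4%), and 1885 (21.9%) and 1048 (12.2%) did so by at least 2-fold. The median log2 difference over all tested genes was 0.10, and it moved between 0.06 and 0.15 when total counts, upper quartile or DESeq2 size factors set the scale. Most tested genes (77.2%) passed in one direction or the other, so a count within a list is read against these shares, and the lists were described without a test of their own. Levels are given as CPM, counts per 1000000 of the library total scaled by its TMM factor, for replicate 1 and then replicate 2 of each format. Differences are log2 of collagen over plastic with their standard error. Where all levels of one format are said to lie above or below those of the other, this describes the named genes. The share of all tested genes with such separation is not given, so it is no evidence beyond the test.

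Genes were named among those without overlap with at least 5 CPM on average and separate groups, leaving out predicted-gene, clone and accession names. Of these, the 15 that rose most were the immediate early genes Egr1, Fos, Fosb and Egr3, and Mroh2a, Scara5, Klf2, mt-Nd2, Sptb, mt-Nd4, mt-Nd5, Mmp13, Tcf7l2, mt-Nd6 and Klf4. The 15 that fell most were Gadd45b, S100a7a, Atp5k, Moxd1, Abcg2, Scn3a, Fgfbp1, Nrp1, Cycs, Hist1h2bp, Polr2l, Hist1h4i, Rps21, Hist1h2bm and Gemin6. The first 15 ranged from 5.10 to 9.18 in log2 difference and the second from -4.21 to -2.28. Their order rests on few plastic counts in places: Mroh2a had 11.64 without control 2D replicate 1 and 6.39 without replicate 2, and Egr3 had 8.44 without control 2D replicate 2. In all 30 genes the groups did not overlap, which the choice of genes required. Scara5, a scavenger receptor that binds ferritin, was at 0.0699 and 0.135 CPM on plastic and 15 and 17.2 CPM in collagen, 3 counts in all on plastic against 890, a ratio of 156 with a 95% counting interval from 53.3 to 759. Tcf7l2, a transcription factor of the Wnt pathway, was at 1.40 and 1.48 CPM on plastic and 56.8 and 50.5 CPM in collagen (log2 difference 5.21 ± 0.15, adjusted p = 3.6e-21). Gadd45b, a stress-inducible regulator of growth arrest, was at 83.8 and 85.7 CPM on plastic and 4.63 and 4.51 CPM in collagen (log2 difference -4.21 ± 0.10, adjusted p = 1.1e-22). Both gel libraries lay far below both plastic libraries. Nrp1, a co-receptor for semaphorins and VEGF, was at 86.2 and 92.9 CPM on plastic and 14.4 and 14.2 CPM in collagen (log2 difference -2.65 ± 0.08, adjusted p = 1.4e-20). Abcg2, a drug efflux transporter, was at 15.7 and 18.3 CPM on plastic and 1.68 and 1.83 CPM in collagen (log2 difference -3.27 ± 0.19, adjusted p = 8.0e-15). Several of these genes have a neighbour on the other strand close by: Mroh2a lies 182 bases from Hjurp, and Sptb touches Plekhg3.

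**Figure D2:**
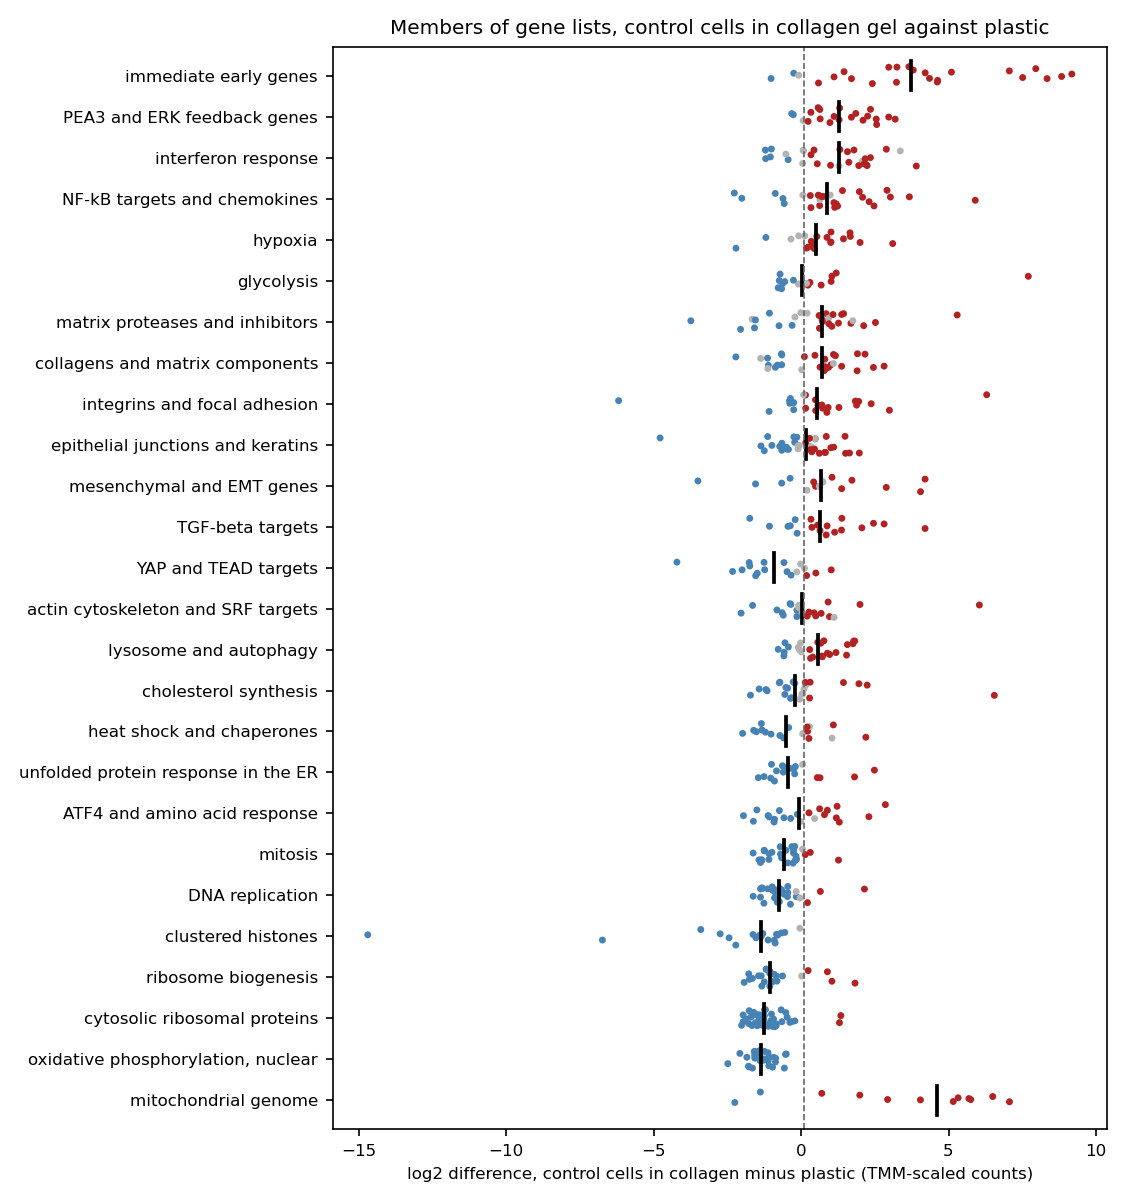
Log2 difference, collagen minus plastic, of every tested member of 26 gene lists in control cells (red, rose; blue, fell; grey, neither at an adjusted p of 0.05; black bar, list median; dashed line, median of all tested genes). Immediate early and mitochondrially encoded genes lie far to the right, with medians of 3.73 and 4.60 (3.49 with mt-Nd4l, at 0 on plastic, set to its lower bound), and nuclear respiratory chain genes lie wholly to the left with a median of -1.37.

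Most immediate early genes rose in control cells from collagen. Of 24 tested members of the list "immediate early genes", 21 rose and 2 fell, with a median of 3.73, and of the 18 without overlap 17 rose and 1 fell. Egr1, a zinc finger transcription factor, was at 1.12 and 0.877 CPM on plastic and 569.6 and 592 CPM in collagen (log2 difference 9.18 ± 0.10, adjusted p = 2.9e-29). Fos, a partner of JUN in the AP-1 factor, was at 0.419 and 1.21 CPM on plastic and 375 and 383 CPM in collagen (log2 difference 8.83 ± 0.13, adjusted p = 1.1e-26), and its log2 difference was 9.81 without control 2D replicate 2. Its relative Fosb was at 3.01 and 1.55 CPM on plastic and 743 and 731 CPM in collagen (log2 difference 8.34 ± 0.15, adjusted p = 2.6e-25). Both gel libraries lay far above both plastic libraries for these genes, and the gel replicates lay close together. Dusp1, a phosphatase that shuts off MAP kinases, was at 5.52 and 5.67 CPM on plastic and 138 and 139 CPM in collagen (log2 difference 4.63 ± 0.09, adjusted p = 8.2e-25). Klf2 was at 0.839 and 1.08 CPM on plastic and 119.8 and 139 CPM in collagen (log2 difference 7.06 ± 0.14, adjusted p = 3.7e-24). Klf4, a related Krüppel-like factor, was at 1.75 and 3.31 CPM on plastic and 87.3 and 87.2 CPM in collagen (log2 difference 5.10 ± 0.18, adjusted p = 4.4e-19). Jun itself was at 44.8 and 51.9 CPM on plastic and 451 and 461 CPM in collagen (log2 difference 3.24 ± 0.06, adjusted p = 2.5e-24, 21.6% of its exon length under another gene). Not all members followed: Jund, an AP-1 subunit that is present without a stimulus, was at 356 and 339 CPM on plastic and 164 and 179 CPM in collagen (log2 difference -1.02 ± 0.05, adjusted p = 1.8e-15, 55.1% of its exon length under another gene), and Srf, whose product binds many of these promoters, was at 88.7 and 80.1 CPM on plastic and 77.3 and 81.9 CPM in collagen (log2 difference -0.08 ± 0.07, adjusted p = 0.259, all of its exon length under another gene) and passed the test in neither direction. Ier5 was at 51.7 and 52.7 CPM on plastic and 42.9 and 45 CPM in collagen (log2 difference -0.25 ± 0.08, adjusted p = 0.00902) and lost that call without control 3D replicate 1, at an adjusted p of 0.116.

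**Figure D3:**
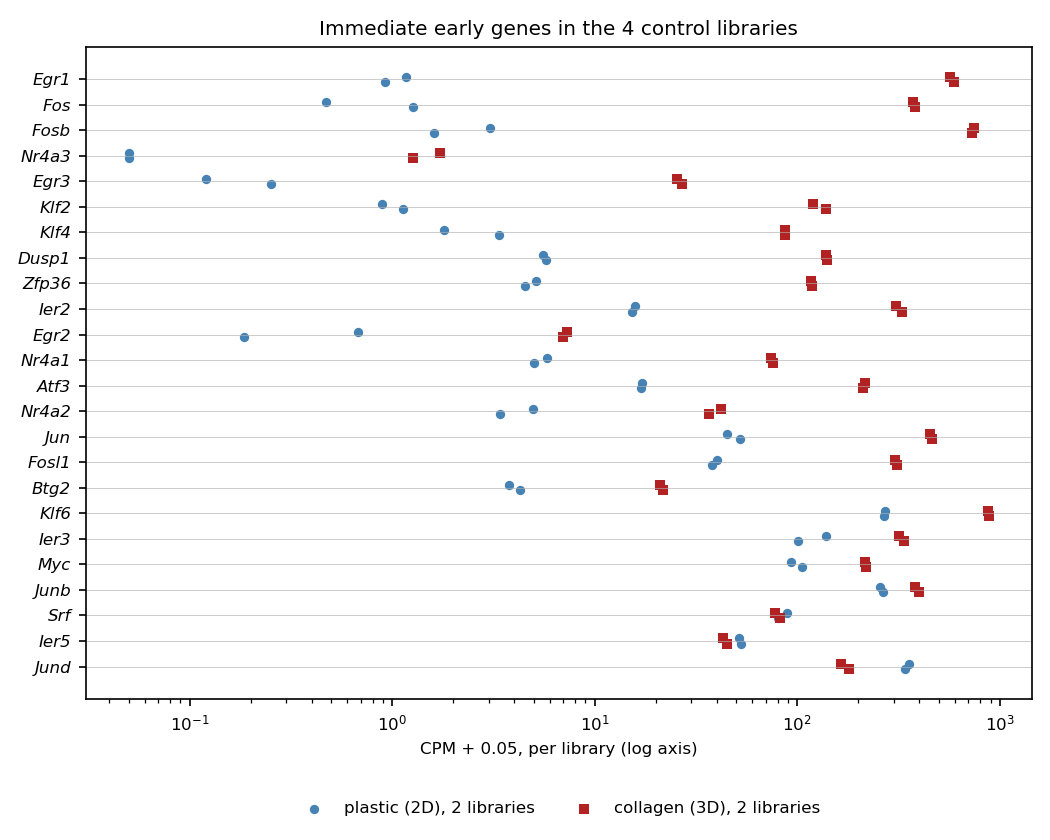
Level of all 24 immediate early genes in each of the 4 control libraries, as CPM plus 0.05 on a log axis, ordered by their difference (circles, plastic; squares, collagen). The squares lie to the right of the circles for every gene from Egr1 down to Junb, and to the left for Ier5 and Jund.

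The cyclic AMP response element TGACGTCA, the site of CREB and ATF factors, was searched on both strands in the 250 bases before each gene's start (RefSeq, GRCm38.p6). A promoter was matched for 19 of the 24 immediate early genes, and 2 of the 19 held the element, Dusp1 and Btg2, against 3.10% of the 10142 tested genes with a promoter and 1.77% of all 27025 promoters in the table. The CArG box, searched in 2 of its forms, stood in 1 of the 19, Srf, against 0.138% of tested genes, and the AP-1 site, TGAGTCA or TGACTCA, in 0 of the 19 against 4.38%. The windows below are shown because both genes rose, Btg2 from 3.70 and 4.25 CPM on plastic to 21 and 21.6 CPM in collagen (log2 difference 2.42 ± 0.16, adjusted p = 3.2e-13), and the element is in capitals. They lie at chr17:26508583-26508640 and chr1:134079289-134079346, both on the minus strand.
Dusp1: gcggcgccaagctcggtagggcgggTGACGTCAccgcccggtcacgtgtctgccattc
Btg2: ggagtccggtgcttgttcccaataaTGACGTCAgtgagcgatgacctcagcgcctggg

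Genes that ERK signalling induces, among them its own feedback inhibitors and the PEA3 family of ETS factors, mostly rose. Of 21 tested among 22 members of the list "PEA3 and ERK feedback genes", 18 rose and 2 fell, with a median of 1.29, and of the 16 without overlap 15 rose and 0 fell. Spred2, an inhibitor of RAF activation, was at 11.8 and 15.7 CPM on plastic and 124 and 128 CPM in collagen (log2 difference 3.19 ± 0.09, adjusted p = 3.6e-21). Spry2, a feedback inhibitor of receptor signalling, was at 24.9 and 27.1 CPM on plastic and 122 and 126 CPM in collagen (log2 difference 2.26 ± 0.07, adjusted p = 3.2e-20). Areg, which encodes the EGF receptor ligand amphiregulin, was at 20.9 and 19.1 CPM on plastic and 116 and 118 CPM in collagen (log2 difference 2.55 ± 0.07, adjusted p = 5.3e-21). The 3 PEA3 factors had log2 differences of different size, which were not tested against each other. Etv1 was at 23.7 and 21.3 CPM on plastic and 120.2 and 109.9 CPM in collagen (log2 difference 2.35 ± 0.08, adjusted p = 4.3e-20), Etv5 at 44.7 and 44.8 CPM on plastic and 66.9 and 72 CPM in collagen (log2 difference 0.63 ± 0.07, adjusted p = 1.1e-08). Etv4 was at 78.1 and 76 CPM on plastic and 94.7 and 99.4 CPM in collagen (log2 difference 0.33 ± 0.06, adjusted p = 2.7e-05). Etv4 is the gene targeted in the clones, and in these control cells its 2 levels in collagen lay above both on plastic. Of 12 tested among 14 members of the list "EGF ligands and ERBB receptors", 7 rose and 3 fell, with a median of 0.57, and of the 10 without overlap 6 rose and 3 fell. Tgfa, another EGF receptor ligand, was at 56.6 and 54.6 CPM on plastic and 162 and 162 CPM in collagen (log2 difference 1.54 ± 0.06, adjusted p = 1.4e-18), and the receptor genes Erbb2 and Erbb3 at log2 differences of 0.99 ± 0.07 and 0.98 ± 0.08. Egfr was low in every library, at 5.31 and 3.71 CPM on plastic and 4.96 and 4.23 CPM in collagen, and passed the test in neither direction.

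Receptors for matrix were higher in collagen more often than lower. Of 24 tested among 25 members of the list "integrins and focal adhesion", 16 rose and 7 fell, with a median of 0.53, and of the 19 without overlap 12 rose and 6 fell. Itgb4, which pairs with the laminin receptor chain Itga6, was at 77.2 and 78.7 CPM on plastic and 402 and 408 CPM in collagen (log2 difference 2.38 ± 0.06, adjusted p = 2.1e-22, 22.6% of its exon length under another gene). Cd44, the receptor of hyaluronan, was at 319 and 383 CPM on plastic and 1319 and 1271 CPM in collagen (log2 difference 1.88 ± 0.06, adjusted p = 1.4e-19). Of the collagen-binding integrin chains, Itga1 was at 0.979 and 1.48 CPM on plastic and 10.1 and 9.71 CPM in collagen (log2 difference 2.99 ± 0.27, adjusted p = 8.7e-11, 16.1% of its exon length under another gene) and Itga2 at 141 and 168 CPM on plastic and 292 and 275 CPM in collagen (log2 difference 0.87 ± 0.06, adjusted p = 2.3e-12), while their partner Itgb1 had a log2 difference of -0.25 ± 0.06. Ddr1, a collagen-activated receptor kinase, was at 24.3 and 23.3 CPM on plastic and 57 and 58.9 CPM in collagen (log2 difference 1.28 ± 0.08, adjusted p = 7.4e-14, 6.43% of its exon length under another gene). Ilk, integrin-linked kinase, was at 74.5 and 66.1 CPM on plastic and 0.875 and 1.04 CPM in collagen (log2 difference -6.19 ± 0.14, adjusted p = 4.9e-23, all of its exon length under another gene), but 89.7% of its exon length lies under exons of the opposite strand, just below the class of at least 90% described above.

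Matrix components and the enzymes that cut them moved in both directions. Of 28 tested among 37 members of the list "collagens and matrix components", 16 rose and 8 fell, with a median of 0.72, and of the 17 without overlap 12 rose and 4 fell. Lama3, a chain of laminin-332, was at 119 and 116 CPM on plastic and 459 and 426 CPM in collagen (log2 difference 1.91 ± 0.06, adjusted p = 1.3e-20). Fn1, fibronectin, was at 488 and 535 CPM on plastic and 1378 and 1276 CPM in collagen (log2 difference 1.38 ± 0.06, adjusted p = 7.2e-18). Thbs1, thrombospondin 1, went the other way, at 1255 and 1231 CPM on plastic and 694 and 663 CPM in collagen (log2 difference -0.87 ± 0.06, adjusted p = 2.7e-13, 6.78% of its exon length under another gene). Of 28 tested among 30 members of the list "matrix proteases and inhibitors", 15 rose and 7 fell, with a median of 0.72, and of the 21 without overlap 12 rose and 4 fell. Mmp13, a collagenase that cleaves fibrillar collagen, was at 0.280 and 0.472 CPM on plastic and 14.4 and 15.7 CPM in collagen (log2 difference 5.29 ± 0.29, adjusted p = 4.6e-15). Mmp14, a membrane-bound collagenase, was at 102 and 91.6 CPM on plastic and 167 and 182 CPM in collagen (log2 difference 0.85 ± 0.06, adjusted p = 1.3e-12). the gelatinase Mmp9 was at 44.6 and 50.9 CPM on plastic and 92 and 105 CPM in collagen (log2 difference 1.04 ± 0.08, adjusted p = 1.0e-11). Both levels in collagen exceeded both levels on plastic for these 3 proteases. Adam12 and Adamts1, metalloproteases of other families, fell, Adamts1 from 289 and 321 CPM on plastic to 102 and 102 CPM in collagen (log2 difference -1.58 ± 0.06, adjusted p = 9.4e-19). Of 17 tested among 20 members of the list "collagen processing and crosslinking", 9 rose and 7 fell, with a median of 0.18, and of the 11 without overlap 6 rose and 4 fell. Serpinh1, the collagen chaperone of the endoplasmic reticulum, was at 244 and 231 CPM on plastic and 132 and 131 CPM in collagen (log2 difference -0.85 ± 0.05, adjusted p = 3.1e-14). P4hb, a subunit of prolyl hydroxylase, was at 835 and 821 CPM on plastic and 356 and 386 CPM in collagen (log2 difference -1.16 ± 0.06, adjusted p = 2.0e-16).

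Most tested YAP and TEAD target genes were lower in collagen. Of 18 tested among 21 members of the list "YAP and TEAD targets", 3 rose and 12 fell, with a median of -0.91, and of the 13 without overlap 3 rose and 8 fell. The median of those 13 was -0.48. Ctgf, a matricellular protein, was at 68 and 80.3 CPM on plastic and 15 and 14.7 CPM in collagen (log2 difference -2.32 ± 0.09, adjusted p = 2.8e-18), Ankrd1, a nuclear ankyrin repeat protein, at 218 and 243 CPM on plastic and 82.1 and 82.8 CPM in collagen (log2 difference -1.48 ± 0.06, adjusted p = 4.3e-18). Cyr61 was at 266 and 275 CPM on plastic and 113 and 117 CPM in collagen (log2 difference -1.23 ± 0.06, adjusted p = 4.8e-17). Ajuba, an adaptor that binds LATS kinases, was at 232 and 231 CPM on plastic and 64.3 and 72.1 CPM in collagen (log2 difference -1.76 ± 0.06, adjusted p = 7.8e-20). The 2 gel libraries lay below both plastic libraries for each of these 4 genes, and the members that rose were Amotl1, Ptpn14 and Arhgef17, of which Ptpn14 lost its call when differences were centred by gene length (adjusted p = 0.302). Of 24 tested among 27 members of the list "actin cytoskeleton and SRF targets", 9 rose and 9 fell, with a median of 0.02, and of the 15 without overlap 4 rose and 8 fell. Tpm1, a tropomyosin of stress fibres, was at 846 and 831 CPM on plastic and 270.0 and 266 CPM in collagen (log2 difference -1.64 ± 0.05, adjusted p = 1.6e-20), whereas Actn4, an actin crosslinker, was at 89 and 94.4 CPM on plastic and 369 and 364 CPM in collagen (log2 difference 2.00 ± 0.08, adjusted p = 7.1e-18, 5.16% of its exon length under another gene). Of 19 tested among 20 members of the list "TGF-beta targets", 13 rose and 6 fell, with a median of 0.64, and of the 16 without overlap 11 rose and 5 fell. Tgfb1, the ligand itself, was at 4.05 and 3.58 CPM on plastic and 67.4 and 73.3 CPM in collagen (log2 difference 4.20 ± 0.13, adjusted p = 4.7e-20). Smad7, the inhibitor that the pathway induces, was at 53.5 and 58.6 CPM on plastic and 145 and 144 CPM in collagen (log2 difference 1.37 ± 0.06, adjusted p = 5.1e-17).

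Epithelial and mesenchymal genes did not move as blocks. Of 35 tested among 37 members of the list "epithelial junctions and keratins", 16 rose and 14 fell, with a median of 0.16, and of the 26 without overlap 11 rose and 10 fell. Cdh1, E-cadherin, was at 228 and 275 CPM on plastic and 452 and 458 CPM in collagen (log2 difference 0.85 ± 0.06, adjusted p = 1.7e-12), Jup, plakoglobin, at 101 and 87.3 CPM on plastic and 262 and 272 CPM in collagen (log2 difference 1.51 ± 0.06, adjusted p = 3.6e-18). the keratin gene Krt8 was at 1470.4 and 1415 CPM on plastic and 851 and 895 CPM in collagen (log2 difference -0.72 ± 0.05, adjusted p = 2.6e-13, 13.8% of its exon length under another gene). Of 16 tested among 20 members of the list "mesenchymal and EMT genes", 8 rose and 4 fell, with a median of 0.68, and of the 13 without overlap 6 rose and 3 fell. Snai1, a repressor of Cdh1, was at 1.12 and 2.29 CPM on plastic and 12.1 and 13.3 CPM in collagen (log2 difference 2.89 ± 0.22, adjusted p = 6.0e-12), with a log2 difference of 3.51 without control 2D replicate 2. Vim, vimentin, was at 1612 and 1671 CPM on plastic and 2320.3 and 2287 CPM in collagen (log2 difference 0.49 ± 0.05, adjusted p = 8.4e-10). Lgals1, galectin 1, was at 4409 and 3992 CPM on plastic and 1434 and 1445 CPM in collagen (log2 difference -1.54 ± 0.05, adjusted p = 3.7e-19). Cdh1 and its repressor Snai1 were thus both higher in collagen.

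All tested nuclear genes of the respiratory chain list fell, and most tested genes of the mitochondrial genome rose. Of 30 tested members of the list "oxidative phosphorylation, nuclear", 0 rose and 30 fell, with a median of -1.37, and of the 19 without overlap 0 rose and 19 fell. Cycs, cytochrome c, was at 129.5 and 135 CPM on plastic and 23.2 and 24 CPM in collagen (log2 difference -2.49 ± 0.07, adjusted p = 7.5e-22), Atp5b, a catalytic subunit of ATP synthase, at 2295 and 2071 CPM on plastic and 910.0 and 935 CPM in collagen (log2 difference -1.24 ± 0.05, adjusted p = 2.1e-17). Sdha of complex II was at 144 and 147 CPM on plastic and 99.4 and 106 CPM in collagen (log2 difference -0.50 ± 0.06, adjusted p = 2.6e-08). Within the list Cycs fell most and Sdha least. Atp5k, a nuclear gene of ATP synthase outside the list, was at 79.7 and 74.6 CPM on plastic and 6.53 and 6.05 CPM in collagen (log2 difference -3.62 ± 0.11, adjusted p = 2.1e-20). Of 12 tested among 15 members of the list "mitochondrial genome", 10 rose and 2 fell, with a median of 4.60, and of the 11 without overlap 9 rose and 2 fell. One member, mt-Nd4l, had 0 counts on plastic and 43 in collagen, at least 7.55-fold higher, and with it at that bound the median was 3.49. The summed level of the mitochondrial list was 4236 and 4433 CPM on plastic and 17174 and 14726 CPM in collagen. mt-Nd2, a subunit of complex I, was at 16.4 and 20.2 CPM on plastic and 1953 and 1360.2 CPM in collagen (log2 difference 6.5 ± 0.15, adjusted p = 3.7e-23). mt-Nd4 was at 9.72 and 10.9 CPM on plastic and 607 and 508 CPM in collagen (log2 difference 5.75 ± 0.10, adjusted p = 2.6e-25). mt-Cytb of complex III was at 140.3 and 168 CPM on plastic and 2698 and 2395 CPM in collagen (log2 difference 4.05 ± 0.08, adjusted p = 5.1e-24). mt-Co1, of complex IV, went from 3648 and 3707 CPM on plastic to 6327 and 5634 CPM in collagen (log2 difference 0.70 ± 0.07, adjusted p = 4.1e-10). The members that fell were mt-Co2 and mt-Co3. mt-Co3 had few counts in every library, at 4.54 and 4.92 CPM on plastic and 0.766 and 1.22 CPM in collagen (log2 difference -2.25 ± 0.29, adjusted p = 7.7e-08). Gel replicate 1 was above gel replicate 2 for mt-Nd2, mt-Nd4 and mt-Cytb, but no plastic library came near either.

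**Figure D4:**
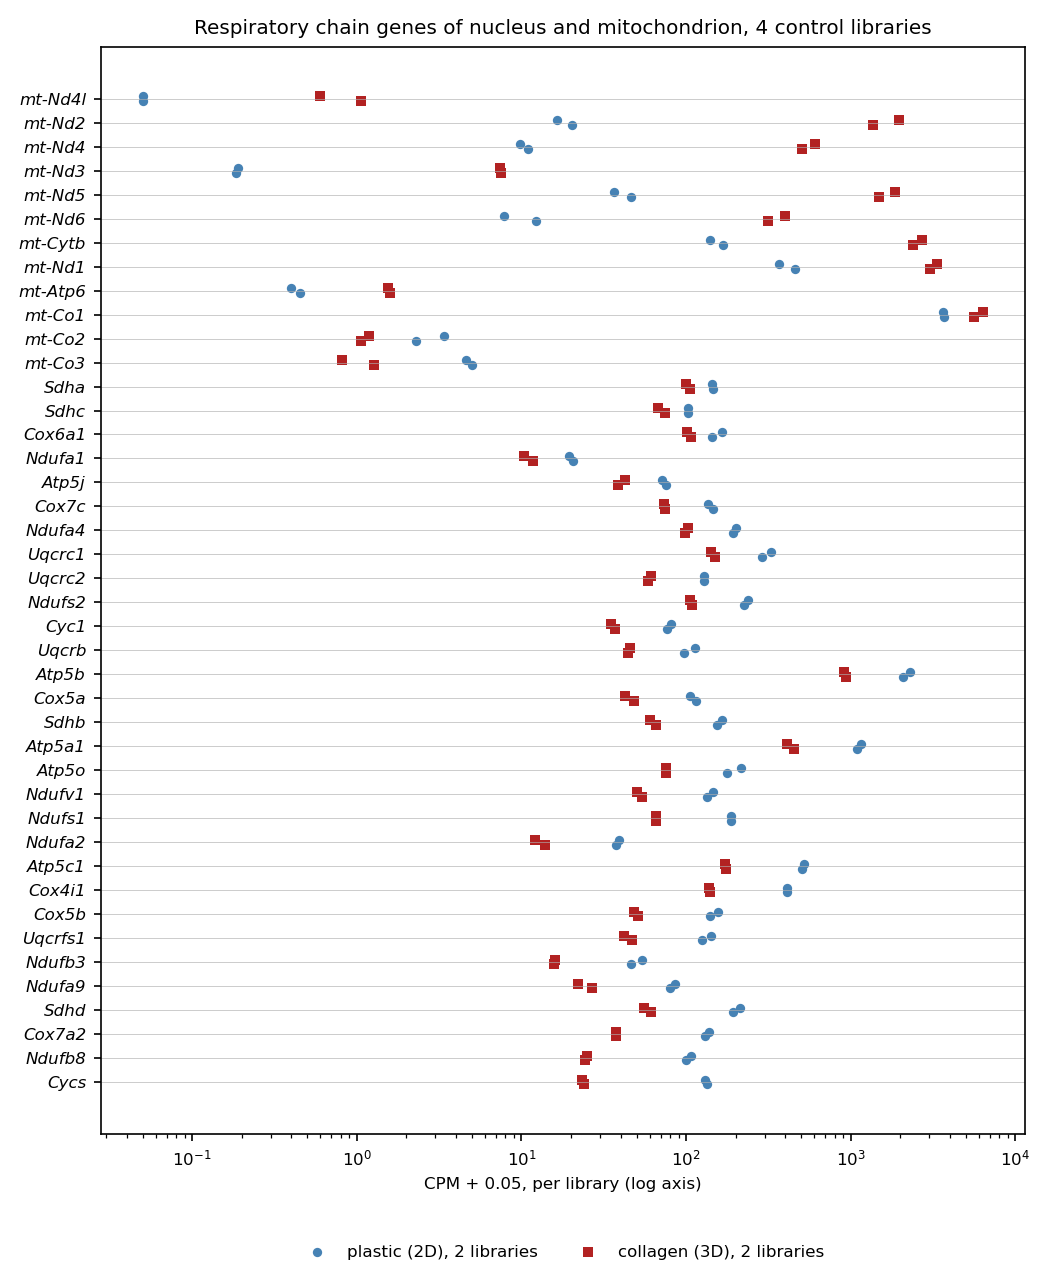
Level of all 12 tested genes of the mitochondrial genome and all 30 tested nuclear genes of oxidative phosphorylation in the 4 control libraries, as CPM plus 0.05 on a log axis (circles, plastic; squares, collagen). Squares lie to the right of circles for 10 of the 12 mitochondrial genes and to the left for all 30 nuclear genes.

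Nearly all tested ribosomal protein genes were lower in collagen. Of 52 tested members of the list "cytosolic ribosomal proteins", 2 rose and 50 fell, with a median of -1.25, and of the 29 without overlap 1 rose and 28 fell. Rps9 was at 1051 and 1040.2 CPM on plastic and 254 and 263 CPM in collagen (log2 difference -2.02 ± 0.05, adjusted p = 1.1e-21) and Rpl8 at 1480.0 and 1445 CPM on plastic and 357 and 392 CPM in collagen (log2 difference -1.97 ± 0.06, adjusted p = 4.5e-21). The 2 members that rose were Rps16 and Rpl28, Rpl28 at 182 and 190.2 CPM on plastic and 464 and 484 CPM in collagen (log2 difference 1.35 ± 0.05, adjusted p = 1.9e-18, 28.3% of its exon length under another gene). Of 24 tested members of the list "ribosome biogenesis", 4 rose and 19 fell, with a median of -1.06, and of the 21 without overlap 3 rose and 17 fell. Npm1, nucleophosmin, was at 3773 and 3917 CPM on plastic and 1496 and 1520.0 CPM in collagen (log2 difference -1.35 ± 0.05, adjusted p = 4.0e-18). Nop2, a methyltransferase of ribosomal RNA, was at 308 and 294 CPM on plastic and 90.5 and 88.1 CPM in collagen (log2 difference -1.75 ± 0.05, adjusted p = 2.7e-20). Ncl, nucleolin, rose, at 311 and 334 CPM on plastic and 1137 and 1157 CPM in collagen (log2 difference 1.83 ± 0.07, adjusted p = 1.9e-18). Of 8 tested among 16 members of the list "nuclear noncoding RNAs", 6 rose and 1 fell, with a median of 1.42, and of the 2 without overlap 2 rose and 0 fell. Malat1, a long RNA retained in the nucleus, was at 1487 and 1459 CPM on plastic and 8479 and 7041 CPM in collagen (log2 difference 2.40 ± 0.11, adjusted p = 3.7e-17, 7.72% of its exon length under another gene). Neat1, the scaffold of paraspeckles, was at 168 and 154 CPM on plastic and 1261 and 1042 CPM in collagen (log2 difference 2.84 ± 0.13, adjusted p = 1.0e-16).

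Most genes of DNA replication and mitosis were lower in collagen. Of 31 tested members of the list "DNA replication", 3 rose and 26 fell, with a median of -0.75, and of the 20 without overlap 1 rose and 19 fell. Mcm5, a subunit of the replicative helicase, was at 644 and 581 CPM on plastic and 250.4 and 248 CPM in collagen (log2 difference -1.30 ± 0.05, adjusted p = 1.1e-17). Tyms, thymidylate synthase, was at 150.3 and 146 CPM on plastic and 59.1 and 55.1 CPM in collagen (log2 difference -1.38 ± 0.06, adjusted p = 1.1e-17). E2f1, a factor that drives entry into S phase, rose, at 12.6 and 10.9 CPM on plastic and 50.9 and 53.3 CPM in collagen (log2 difference 2.15 ± 0.10, adjusted p = 4.6e-17). Of 28 tested members of the list "mitosis", 3 rose and 24 fell, with a median of -0.58, and of the 21 without overlap 2 rose and 19 fell. Cdk1, the mitotic kinase, was at 419.9 and 417 CPM on plastic and 162 and 159.8 CPM in collagen (log2 difference -1.38 ± 0.05, adjusted p = 7.4e-19). its partner Ccnb1 was at 299 and 301 CPM on plastic and 121 and 118 CPM in collagen (log2 difference -1.33 ± 0.05, adjusted p = 5.1e-18). Foxm1, a transcription factor of mitotic genes, went the other way at 54.9 and 59.7 CPM on plastic and 136 and 140.5 CPM in collagen (log2 difference 1.27 ± 0.06, adjusted p = 2.1e-16, 12% of its exon length under another gene), and Plk1 passed the test in neither direction, with a log2 difference of 0.05 ± 0.06. Of 19 tested members of the list "clustered histones", 0 rose and 18 fell, with a median of -1.35, and of the 13 without overlap 0 rose and 13 fell. Hist1h1d, a linker histone, was at 583 and 573 CPM on plastic and 223 and 229.9 CPM in collagen (log2 difference -1.35 ± 0.05, adjusted p = 9.5e-19). Messages of clustered histones lack a poly(A) tail in dividing cells, and the libraries were made from polyadenylated RNA. Cdkn1a, the Cdk inhibitor p21, was at 0.559 and 0.944 CPM on plastic and 54.7 and 54.3 CPM in collagen (log2 difference 6.16 ± 0.20, adjusted p = 9.2e-20, 7.68% of its exon length under another gene).

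Chaperone genes were mostly lower. Of 18 tested among 19 members of the list "heat shock genes and chaperones", 5 rose and 10 fell, with a median of -0.51, and of the 14 without overlap 4 rose and 8 fell. Hspa8, the constitutive cytosolic chaperone of the HSP70 family, was at 4267 and 4082 CPM on plastic and 1628 and 1696 CPM in collagen (log2 difference -1.33 ± 0.05, adjusted p = 1.6e-18, 6.09% of its exon length under another gene), Hsp90aa1 at 2082 and 2143 CPM on plastic and 897 and 932 CPM in collagen (log2 difference -1.21 ± 0.05, adjusted p = 1.9e-17). Fkbp4, a co-chaperone of steroid receptors, was at 336 and 312 CPM on plastic and 123 and 132 CPM in collagen (log2 difference -1.35 ± 0.06, adjusted p = 1.1e-17). Bag3, a co-chaperone that heat shock factor 1 induces, rose, at 16.6 and 17.7 CPM on plastic and 78.3 and 78.7 CPM in collagen (log2 difference 2.20 ± 0.09, adjusted p = 1.0e-17). Of 18 tested members of the list "unfolded protein response in the ER", 4 rose and 13 fell, with a median of -0.45, and of the 15 without overlap 4 rose and 11 fell. Hspa5, the chaperone BiP, was at 1539 and 1512 CPM on plastic and 843 and 869 CPM in collagen (log2 difference -0.83 ± 0.05, adjusted p = 1.1e-13), while Dnajb9, a BiP co-chaperone, was at 4.33 and 5.40 CPM on plastic and 28.3 and 26.4 CPM in collagen (log2 difference 2.49 ± 0.13, adjusted p = 1.9e-15). A short heat shock element, GAANNTTC on either strand, stood in 7 of the 14 list members with a promoter in the table, against 5.98% of tested genes with one and 7.73% of all promoters. It was present in 1 of 4 members that rose, 3 of 7 that fell and 2 of 2 in neither group. The windows below have the element in capitals, one from the promoter that Hspd1 and Hspe1 share between them, where both genes fell, and one from Fkbp4. They lie at chr1:55088039-55088096 and chr6:128438775-128438832, on the minus strand.
Hspd1: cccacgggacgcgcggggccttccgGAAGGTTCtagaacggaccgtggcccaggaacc
Fkbp4: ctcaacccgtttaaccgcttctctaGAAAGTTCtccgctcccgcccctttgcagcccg
Hspd1 and Hspe1, the mitochondrial chaperonin and its partner, were at 1126 and 1173 CPM on plastic and 382 and 372 CPM in collagen (log2 difference -1.61 ± 0.05, adjusted p = 5.2e-20) and at 244 and 256 CPM on plastic and 64.8 and 61.7 CPM in collagen (log2 difference -1.98 ± 0.06, adjusted p = 7.3e-21, 7.60% of its exon length under another gene).

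The ATF4 response answers amino acid shortage and other stress, and its list had a share of members that rose near that of all tested genes (41.7%). The share that fell, 11 of 22, lay above the 35.6% of all tested genes. Of 22 tested among 23 members of the list "ATF4 and amino acid response", 9 rose and 11 fell, with a median of -0.07, and of the 16 without overlap 6 rose and 8 fell. The enzymes of serine synthesis fell: Phgdh was at 609 and 541 CPM on plastic and 143 and 154 CPM in collagen (log2 difference -1.95 ± 0.06, adjusted p = 1.1e-20) and Psat1 at 376 and 367 CPM on plastic and 133 and 129 CPM in collagen (log2 difference -1.50 ± 0.05, adjusted p = 1.0e-19). Ddit4, an inhibitor of mTORC1, was at 13.1 and 7.55 CPM on plastic and 71.6 and 78 CPM in collagen (log2 difference 2.86 ± 0.12, adjusted p = 2.7e-17). Ppp1r15a, which restarts translation, was at 9.02 and 8.36 CPM on plastic and 42.1 and 43.5 CPM in collagen (log2 difference 2.30 ± 0.11, adjusted p = 4.2e-16, 13.9% of its exon length under another gene). Atf4 itself was at 296 and 267 CPM on plastic and 219.7 and 222 CPM in collagen (log2 difference -0.35 ± 0.06, adjusted p = 2.5e-06). The composite C/EBP-ATF site TGATGNAA, on either strand, stood in 7 of the 22 members with a promoter in the table (31.8%), against 2.35% of tested genes with one and 3.91% of all promoters. Among the members tested it stood in 3 of 9 that rose, 2 of 10 that fell and 1 of 2 in neither group. A window from a gene that fell and another from a gene that rose are shown, at chr6:7693210-7693257 and chr7:126625548-126625605 on the minus strand, with the site in capitals.
Asns: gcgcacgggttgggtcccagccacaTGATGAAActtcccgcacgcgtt
Nupr1: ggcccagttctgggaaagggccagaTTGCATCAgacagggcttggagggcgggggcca
Asns, asparagine synthetase, was at 118 and 105 CPM on plastic and 51.2 and 53.9 CPM in collagen (log2 difference -1.08 ± 0.07, adjusted p = 3.1e-14). Nupr1, a stress-induced chromatin protein, was at 20.8 and 13.3 CPM on plastic and 26.4 and 26.2 CPM in collagen (log2 difference 0.63 ± 0.13, adjusted p = 9.4e-05).

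Hypoxia genes were more often higher. Of 20 tested among 23 members of the list "hypoxia", 15 rose and 2 fell, with a median of 0.49, and of the 13 without overlap 10 rose and 1 fell. Ndrg1, a stress-responsive gene, was at 45.9 and 36.8 CPM on plastic and 344 and 367 CPM in collagen (log2 difference 3.11 ± 0.08, adjusted p = 7.5e-22, 24.8% of its exon length under another gene), Vegfa, the angiogenic growth factor, at 18.7 and 15.4 CPM on plastic and 53.2 and 55.2 CPM in collagen (log2 difference 1.67 ± 0.10, adjusted p = 6.8e-14). Egln3, an oxygen-sensing prolyl hydroxylase, was at 16.3 and 19.6 CPM on plastic and 57 and 56.4 CPM in collagen (log2 difference 1.66 ± 0.09, adjusted p = 1.9e-15). Ak4 and Higd1a fell. The core of the HIF site, ACGTG or GCGTG, stood in 16 of the 16 promoters matched, against 61.0% of tested genes. Of 17 tested members of the list "glycolysis", 7 rose and 7 fell, with a median of 0.03, and of the 11 without overlap 5 rose and 5 fell. Gapdh was at 564 and 583 CPM on plastic and 1279.6 and 1341 CPM in collagen (log2 difference 1.19 ± 0.05, adjusted p = 2.2e-17). Ldha, lactate dehydrogenase, was at 1017 and 991 CPM on plastic and 569 and 604 CPM in collagen (log2 difference -0.78 ± 0.05, adjusted p = 7.0e-13). Of 25 tested members of the list "cholesterol synthesis", 7 rose and 13 fell, with a median of -0.21, and of the 17 without overlap 7 rose and 8 fell. Srebf2, the factor that controls the pathway, was at 67.7 and 73.9 CPM on plastic and 329 and 340.3 CPM in collagen (log2 difference 2.24 ± 0.06, adjusted p = 1.1e-21), and the enzyme genes Mvk and Pmvk had log2 differences of -1.19 ± 0.08 and -1.42 ± 0.09. A sterol regulatory element stood in 0 of the 17 promoters matched, against 0.207% of tested genes. Of 14 tested members of the list "iron handling", 6 rose and 5 fell, with a median of 0.10, and of the 11 without overlap 5 rose and 3 fell. Fth1, the ferritin heavy chain, was at 227 and 215 CPM on plastic and 1616 and 1686 CPM in collagen (log2 difference 2.90 ± 0.06, adjusted p = 6.4e-24). Tfrc, the transferrin receptor, was at 788 and 869 CPM on plastic and 197 and 201 CPM in collagen (log2 difference -2.05 ± 0.06, adjusted p = 1.3e-20). Of 25 tested members of the list "lysosome and autophagy", 16 rose and 5 fell, with a median of 0.57, and of the 14 without overlap 10 rose and 3 fell. Ulk1, a kinase that starts autophagy, was at 19 and 15.4 CPM on plastic and 59.1 and 62.2 CPM in collagen (log2 difference 1.82 ± 0.10, adjusted p = 1.4e-15).

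Inflammatory and interferon genes were more often higher than lower. Of 28 tested among 31 members of the list "NF-kB targets and chemokines", 20 rose and 5 fell, with a median of 0.87, and of the 20 without overlap 14 rose and 3 fell. Lif, a cytokine of the IL-6 family, was at 46.7 and 42.1 CPM on plastic and 173 and 176 CPM in collagen (log2 difference 1.98 ± 0.07, adjusted p = 9.6e-20), Nfkbiz, a nuclear cofactor of NF-kB, at 35.9 and 39 CPM on plastic and 164 and 154 CPM in collagen (log2 difference 2.08 ± 0.08, adjusted p = 4.9e-19). the chemokine Cxcl1 was at 45.8 and 45 CPM on plastic and 98.2 and 102 CPM in collagen (log2 difference 1.14 ± 0.06, adjusted p = 3.7e-15). Cxcl16 fell, at 148 and 149.9 CPM on plastic and 82.9 and 79.8 CPM in collagen (log2 difference -0.88 ± 0.06, adjusted p = 4.4e-13, 18.3% of its exon length under another gene). Of 28 tested among 33 members of the list "interferon response", 16 rose and 5 fell, with a median of 1.30, and of the 23 without overlap 13 rose and 3 fell. With members at 0 counts in a format set to their bound, the median was 1.14. Oasl2 was at 2.24 and 1.96 CPM on plastic and 15.8 and 15.4 CPM in collagen (log2 difference 2.89 ± 0.20, adjusted p = 3.9e-13). Irf1, an interferon regulatory factor, went the other way was at 74.4 and 67.4 CPM on plastic and 29.4 and 31.8 CPM in collagen (log2 difference -1.21 ± 0.08, adjusted p = 9.9e-14). Isg15, an interferon-induced ubiquitin-like protein, had few counts on plastic, at 0.629 and 1.42 CPM on plastic and 5.11 and 5.45 CPM in collagen (log2 difference 2.35 ± 0.31, adjusted p = 1.5e-07), and its log2 difference was 3.06 without control 2D replicate 2. Of 7 tested among 18 members of the list "complement and acute phase", 5 rose and 0 fell, with a median of 1.49, and of the 5 without overlap 3 rose and 0 fell. The other 11 members did not pass the filter. Lcn2, which rose, had 0 counts on plastic and 64 over both gel libraries. It could pass the filter only through libraries where it was high. C3, the central complement component, was at 7.13 and 6.41 CPM on plastic and 70.1 and 64.9 CPM in collagen (log2 difference 3.32 ± 0.10, adjusted p = 1.3e-20). Of 13 tested among 15 members of the list "circadian clock", 7 rose and 4 fell, with a median of 0.31, and of the 8 without overlap 3 rose and 4 fell. The median of those 8 was -0.05. Per1, a clock gene that also responds to acute signals, was at 4.47 and 3.31 CPM on plastic and 74.7 and 72 CPM in collagen (log2 difference 4.24 ± 0.11, adjusted p = 9.0e-22).

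Other lists were mixed. Of 21 tested members of the list "NRF2 and antioxidant genes", 10 rose and 9 fell, with a median of -0.10, and of the 17 without overlap 7 rose and 8 fell. Of 18 tested among 20 members of the list "p53 targets", 8 rose and 7 fell, with a median of 0.02, and of the 14 without overlap 6 rose and 6 fell. Of 13 tested among 15 members of the list "Notch pathway", 7 rose and 2 fell, with a median of 0.42, and of the 7 without overlap 3 rose and 1 fell. Of 13 tested among 20 members of the list "Wnt pathway", 6 rose and 3 fell, with a median of 0.62, and of the 8 without overlap 4 rose and 2 fell. Of 17 tested among 18 members of the list "MHC class I presentation", 8 rose and 6 fell, with a median of 0.19, and of the 8 without overlap 3 rose and 3 fell. Of 18 tested among 20 members of the list "apoptosis regulators", 7 rose and 6 fell, with a median of -0.01, and of the 12 without overlap 5 rose and 2 fell. Of 12 tested among 15 members of the list "Cdk inhibitors and D cyclins", 7 rose and 3 fell, with a median of 0.52, and of the 6 without overlap 3 rose and 1 fell. Of 12 tested among 14 members of the list "metallothioneins and zinc transporters", 3 rose and 5 fell, with a median of -0.10, and of the 7 without overlap 2 rose and 2 fell. Of 13 tested among 14 members of the list "solute and glucose transporters", 8 rose and 4 fell, with a median of 0.64, and of the 11 without overlap 7 rose and 3 fell. Of 14 tested among 15 members of the list "fatty acid synthesis and desaturation", 4 rose and 6 fell, with a median of -0.02, and of the 12 without overlap 3 rose and 5 fell. Of 10 tested among 18 members of the list "fatty acid oxidation and PPAR targets", 5 rose and 5 fell, with a median of 0.13, and of the 9 without overlap 5 rose and 4 fell. Without overlap, the median was 0.31 for the Wnt list, 0.15 for Cdk inhibitors and D cyclins and 0.03 for MHC class I presentation. It was 0.27 for apoptosis regulators and 0.58 for fatty acid oxidation. Bcl2l11, the cell death gene BIM, was at 26.4 and 25.1 CPM on plastic and 128 and 128 CPM in collagen (log2 difference 2.31 ± 0.07, adjusted p = 8.7e-21).

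Epithelial markers were detected in both formats. All 10 epithelial markers passed the filter, Epcam at 318 and 304 CPM on plastic and 292 and 304 CPM in collagen as the one member with no call. Of the 10, 4 rose and 5 fell, and their summed level was 4482 and 4446 CPM on plastic and 3631 and 3744 CPM in collagen. Of 10 leukocyte markers 3 were tested, 1 rose and 0 fell, and the sums were 9.09 and 12.7 CPM on plastic and 14.1 and 13.4 CPM in collagen. Itgam, Adgre1 and Laptm5 were at 0 counts in all 4 libraries. Of 10 fibroblast markers, Pdgfra and Postn were tested, the first higher and the second lower, with sums of 11 and 9.24 CPM on plastic and 22.4 and 22.2 CPM in collagen, and Col3a1, Pdgfrb and Lum were at 0 in all 4. Endothelial markers summed to 14.9 and 12.4 CPM on plastic and 4.08 and 4.94 CPM in collagen, with Kdr and Emcn at 0. Of the 5 red cell markers, all 4 haemoglobin genes were at 0 counts in every control library. The fifth, Alas2, which encodes a haem synthesis enzyme, had 0 counts on plastic and 82 over both gel libraries, at least 14.4-fold higher, with all of its exon length under another gene. Also at 0 were the adipocyte markers Adipoq and Lep. The part of these markers in the results was not tested.

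Per kilobase of exon, the most abundant genes on plastic were Gm26917, Eef1a1, Lgals1, Actb and Rplp1, and in collagen Gm26917, Gm42418, mt-Co1, mt-Nd1 and Eef1a1. Eef1a1, the elongation factor that brings aminoacyl-tRNA to the ribosome, had 5703 CPM per kilobase on plastic and 3296 in collagen. Gm26917 had 5804 and 37099.8.

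The difference between formats in control cells was set beside that in the Etv4 knockout clones, which share no library with it. Of the 5735 genes that rose in control cells, 4914 also rose in clone 1 (85.7% of the control genes and 89.8% of the 5473 that rose in clone 1, where 39.8% of tested genes rose). In clone 2, 5031 of them rose (87.7%, and 86.0% of its 5850, or 42.5% of tested genes). Of the 4893 that fell, 4300 also fell in clone 1 (87.9%, and 88.4% of its 4863, or 35.3% of tested genes) and 4373 in clone 2 (89.4%, and 85.8% of its 5097, or 37.0%). Across genes, which are not independent replicates, Pearson's r of the log2 differences was 0.887 with clone 1 and 0.892 with clone 2. The clones were cultured, digested and counted in the same 2 tables as the control cells.

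**Figure D5:**
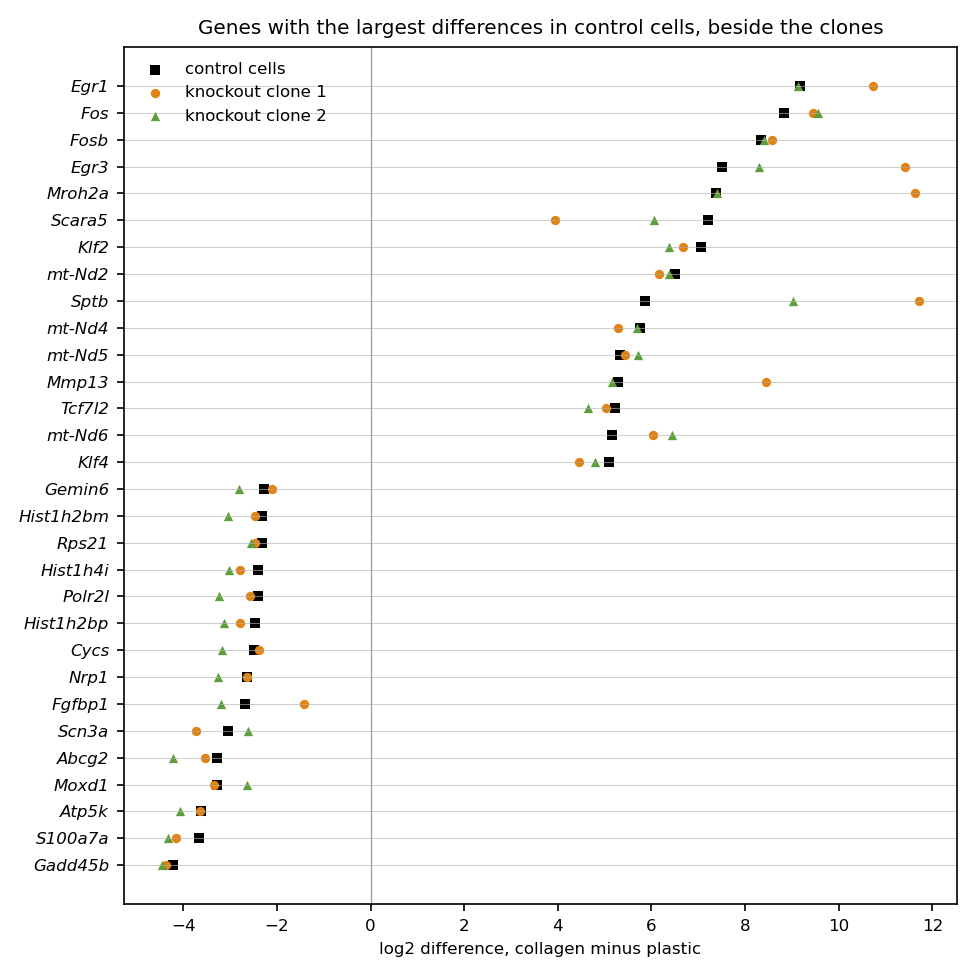
Log2 difference, collagen minus plastic, of the 30 named genes without overlap that rose or fell most in control cells (squares), beside clone 1 (circles) and clone 2 (triangles). These 30 were picked among genes with at least 5 CPM on average and separate groups, without predicted-gene, clone or accession names. All 15 genes that rose in control cells have points right of 0 in both clones and all 15 that fell have points left of 0. Fitted values of genes with few counts on plastic, such as Egr3 and Mroh2a in clone 1, are not bounds.

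A test of the difference itself, control cells against the mean of both clones in the same edgeR fit, called 713 genes with a higher log2 difference in control cells (5.18% of those tested) and 389 with a lower one (2.83%). The split depended on the scale: DESeq2 size factors gave 527 and 459, upper quartile scaling 487 and 502, and total counts 432 and 482. Without control 3D replicate 1 the counts were 398 and 152, and without control 3D replicate 2 they were 277 and 138. Sparc, a matrix glycoprotein, was at 105 and 102 CPM on plastic and 64.6 and 66.6 CPM in collagen in control cells, a log2 difference of -0.66 ± 0.06, against -1.08 ± 0.06 and -3.67 ± 0.13 in clones 1 and 2, which gave a difference between them of 1.72 ± 0.10, adjusted p = 6.6e-12. Id2, an inhibitor of helix-loop-helix factors, had 2.06 ± 0.10 in control cells against 0.98 ± 0.08 and 0.18 ± 0.09 (1.48 ± 0.12, adjusted p = 3.5e-09). C3 had 3.32 ± 0.10 against 6.12 ± 0.17 and 6.62 ± 0.12 (-3.05 ± 0.20, adjusted p = 7.5e-11), so it rose in all 3 genotypes and rose less in control cells. Neurl3 had 2.92 ± 0.14 against 5.36 ± 0.28 and 7.16 ± 0.29 (-3.35 ± 0.35, adjusted p = 3.6e-07).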

How the data were processed

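RNA from 12 libraries was measured by polyadenylated RNA sequencing with a stranded kit, per the labels' protocols. The authors deposited raw counts of reads by gene, in separate tables for each format. The submitters' processing notes name, without their roles, the build mm10, featureCounts, STAR 2.7.9a, Cell Ranger 3.0.0, FastQC 0.11.9 and R 4.1.1. Library totals are given above. The tables were joined by symbol, low genes were removed with filterByExpr (13763 of 31017 genes kept), and edgeR 4.0.16 (R 4.3.3, TMM scaling, quasi-likelihood test, 6 group means, 6 residual degrees of freedom) was fitted to all 12 libraries with Benjamini-Hochberg adjustment. DESeq2 1.42.0 was an alternative. Positions and overlaps came from GENCODE M21, which placed 99.1% of tested genes. Replicates differed by more than sampling noise (chi-square per degree of freedom 5.81 and 6.96).

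The 15 genes that rose and the 15 that fell most were named among genes past an adjusted p of 0.05, with at least 5 CPM on average, separate groups and under 5% of exon length under another gene. Symbols of predicted genes, clones and accessions were left out. For each list, up to 6 genes with the smallest adjusted p were eligible, with further genes of the rarer direction in some lists. For the difference from the clones, up to 5 genes per direction were eligible by size. The text gives some of these, and other genes were chosen after their values were seen. The members and lists were chosen with earlier results of these data known.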

Additional observations from a re-analysis of the deposited data

Results flagged for a closer look

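The difference between formats was tested against the mean of the 2 Etv4 knockout clones in edgeR's quasi-likelihood fit. In this test 713 genes had a higher log2 difference in control cells and 389 a lower one. The named genes with a higher difference were Sparc (1.72), Id2 (1.48), Arrdc3 (1.30), Pthlh (1.19) and Sox13 (1.16). The named genes with a lower one were Sptb (-4.51), Bicdl2 (-3.71), Bspry (-3.52), Neurl3 (-3.35) and C3 (-3.05). Arrdc3 encodes an arrestin-domain protein, and Pthlh encodes parathyroid hormone-like hormone. Both rose in control cells, by log2 differences of 3.05 ± 0.11 and 4.01 ± 0.21. Sox13 did not pass the test in control cells (-0.17 ± 0.17), and its difference was -0.11 ± 0.17 in clone 1 and -2.55 ± 0.24 in clone 2. Bspry fell in control cells (-1.09 ± 0.13) and had fitted values of 5.20 ± 1.66 in clone 1 and -0.35 ± 0.12 in clone 2, on opposite sides of 0. The standard error in clone 1 was large and the clone counts are not given here. The size of that value, and of the -3.52 that rests on it, is therefore uncertain. The adjusted p of Pthlh was 0.156 without control 2D replicate 2, 0.053 without control 3D replicate 1 and 0.0593 without control 3D replicate 2. That of Sptb was 0.076 without control 2D replicate 1 and 0.0737 without control 2D replicate 2.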

How the results depend on the processing

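With control libraries left out in turn, genes with a higher difference in control cells than in the clones numbered 277 to 756 and those with a lower one 138 to 461. Genes whose exons overlap no other gene gave 2927 that rose and 2624 that fell in collagen, 1569 and 877 by at least 2-fold, and 226 with a lower difference than the clones. Genes with no other gene within 5 kb, a setting chosen after seeing the data, gave 1269 and 1060, 648 and 379, and 246 and 109 against the clones. Fewer genes are tested in both settings: 7226 with no overlapping gene and 2995 with none within 5 kb, against 13763 in the main fit. Their counts are therefore to be read against these numbers. The median log2 difference was 0.07 with no overlapping gene and 0.10 with none within 5 kb, against 0.10 in the main fit. At least 1 CPM in every control library left 10621 tested genes, of which 1822 rose and 1299 fell by at least 2-fold. Against the clones, total counts gave 432 higher, leaving out Gm26917, Gm42418 and mitochondrial genes gave 461 higher, and no filter gave 592 lower. The cause was not tested. Centring by gene length gave 5203 that rose and 5383 that fell, and it reversed Slc39a14 (-0.22), Cenpf (-0.12) and Tug1 (-0.12). Of 5256 values for 333 genes over 17 settings, 5230 kept their direction and side of the threshold, 22 lost the call, 1 gained it and 3 reversed.

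Across tested genes, the replicate 1 minus replicate 2 differences of control cells had a correlation of -0.02 between plastic and collagen. That value cannot show whether replicate numbers pair the libraries. A fit with the replicate block gave 5395 genes that rose and 4708 that fell, and 695 and 345 against the clones. Among the genes named by rule, C1s1 lost its call under that block (adjusted p = 0.175). With 2 libraries per group the spread rests on all 6 groups together.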
